A study of Homo sapiens with 44 samples.

Results

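The comparison described here asked which transcripts tumour necrosis factor (TNF) changed when it was given together with the glucocorticoid dexamethasone (dex) to A549 cells in which IRF2BP2 had been knocked down. A549 is a human lung adenocarcinoma line with features of alveolar epithelium. The tested cells carried small interfering RNA against IRF2BP2 (siIRF2BP2) and received dex and TNF together for 6 h (dex+TNF), and they were set against siIRF2BP2 cells that received dex alone for 6 h (dex). Each group holds 3 RNA samples, so 6 of the 44 samples of the series enter the comparison, and 24 of the 44 are A549 RNA samples. Every A549 group was kept in steroid-depleted medium and transfected at 20 nM for 72 h before treatment, with dex at 100 nM and TNF at 10 ng/ml. The small interfering RNAs were pools of several sequences, and the cells still hold part of the IRF2BP2 transcript, as the values below show. Further A549 groups give the background: siNON (a non-targeting pool) with dex+TNF and with dex, and siIRF2BP2 with TNF and with ethanol vehicle. In what follows, dex+TNF cells, dex cells, TNF cells and vehicle cells carry siIRF2BP2 unless siNON is named.

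TNF binds its receptors at the cell surface and sets off a kinase cascade that degrades IkB proteins, after which NF-kB dimers enter the nucleus and switch on chemokine, cytokine, adhesion and survival genes. Among the genes they switch on are their own inhibitors, which then shut the signal down. Dex binds the glucocorticoid receptor, a nuclear receptor that induces metabolic and anti-inflammatory genes and restrains many NF-kB targets, which is why glucocorticoids are used against airway inflammation. IRF2BP2 is a nuclear cofactor first described as a partner of interferon regulatory factor 2.

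The authors pooled the replicates of each A549 group into 1 column of FPKM (fragments per kilobase, scaled to the tags of a column), so every level below is the authors' pooled value and no spread between replicates could be computed. The length behind these FPKM values is the genomic span of the gene in 98.6% of transcripts. Levels are therefore compared between groups and not ranked between genes. Sums over a list weight genes of short span more and are given only as rough levels of a group. For each of 25689 gene symbols the transcript with the most reads was used. Pooled columns held about 35804000 tags in dex+TNF cells and 36006000 tags in dex cells, and 37486000 to 56862000 tags in the other 6 A549 groups. Log2 fold changes and false discovery rates (FDR) come from the authors' deposited table, and a gene is said to rise or fall only where that FDR is under 0.05. The design text describes biological replicates, but no label names separate cultures, so those p-values may measure technical spread in part. Ratios of pooled reads are given with 95% exact binomial (Clopper-Pearson) intervals, which cover counting error only. FPKM is given to 3 decimals, so in long genes such as VAV3 (7.1 reads) and MAN1C1 (3.0 reads) the rounding leaves that many reads undetermined either way. In bulk RNA, fewer cells of a type and less RNA per cell cannot be told apart.

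The IRF2BP2 gene (hg19 chromosome 1, 234740015 to 234745271, minus strand) stood at 17.9 FPKM in siIRF2BP2 dex+TNF cells and 25.4 FPKM in siNON dex+TNF cells, and at 22.9 FPKM in siIRF2BP2 dex cells and 31.3 FPKM in siNON dex cells. The siIRF2BP2 columns were thus lower under both treatments, and most of the transcript remained. Its log2 fold change with the knockdown was -0.62 under dex+TNF (FDR 9.94e-08) and -0.66 under dex (FDR 2.48e-07) in the authors' deposited table. Between dex+TNF cells and dex cells IRF2BP2 had a log2 fold change of -0.22, which did not pass (FDR 0.159), nor did its relatives IRF2BP1 (0.00) and IRF2BPL (-0.27), in the authors' deposited table. With the knockdown, IRF2BPL was higher than in siNON cells in that table. Its log2 fold change was 1.04 under dex+TNF (FDR 9.35e-20) and 1.09 under dex (FDR 6.35e-14), while IRF2BP1 did not pass under either. The knockdown itself moved many genes: in siIRF2BP2 against siNON, 2995 genes (11.7%) were higher and 3020 (11.8%) lower under dex+TNF, and 2557 (9.95%) were higher and 2762 (10.8%) lower under dex.

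All 13 A549 epithelial markers were detected, with KRT18 at 588 FPKM in dex+TNF cells and 1174 FPKM in dex cells and ALDH1A1 at 106 and 108 FPKM. Of 8 immune cell markers, 2 were listed at 0 in dex+TNF cells and 3 in dex cells, and their summed level was 18.4 FPKM and 18.8 FPKM. CD3E, a T cell receptor subunit, had 0 reads in both. PTPRC, the pan-leukocyte phosphatase CD45, was listed at 0 FPKM in both, which for this long gene leaves room for about 2.1 reads, and did not pass. Most of the sum came from CD68 at 15.7 FPKM in dex+TNF cells and 15.6 FPKM in dex cells. Of 9 endothelial and fibroblast markers, 0 were listed at 0 in dex+TNF cells and 1 in dex cells, and their sum of 3.06 FPKM and 4.54 FPKM was mostly COL1A1. The 6 markers of HEK293, the other line of the series, summed to 3.87 FPKM in dex+TNF cells and 4.25 FPKM in dex cells. Across these 3 lists of other cell types, ITGAM, an integrin of myeloid cells, and WT1 rose, while COL1A1 and LIN28B fell.

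Adding TNF to dex raised 2840 genes (11.1% of the 25689 tested) and lowered 2239 (8.72%) in the knockdown cells. Large changes were mostly rises. A log2 change of at least 1 was reached by 695 risers (2.71%) and 395 fallers (1.54%), at least 2 by 293 and 68, and at least 3 by 159 and 13. Over all 5079 genes that passed, the median absolute log2 fold change was 0.49, and 51.1% moved by less than 0.5. The median log2 fold change of all 25689 genes was 0. Among the 13594 genes with a mean of at least 1 CPM (reads scaled to the tags of a column), the authors' deposited table had a median of 0.005 and the plain log2 ratios of pooled FPKM a median of -0.10, so calls smaller than about that shift depend on the scaling.

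Gene lists were drawn up by function, but lists and members were chosen with earlier results of these data known. Their counts describe these genes and cannot show where the rises lay. NF-kB inhibitors (14 of 15) and antigen-presentation genes (17 of 18) rose almost as a whole, adhesion molecules in 15 of 18 cases and chemokines in 12 of 18 over both chemokine lists, glucocorticoid-induced genes split in both directions, and cell cycle and cholesterol genes mostly did not pass.

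**Figure D1:**
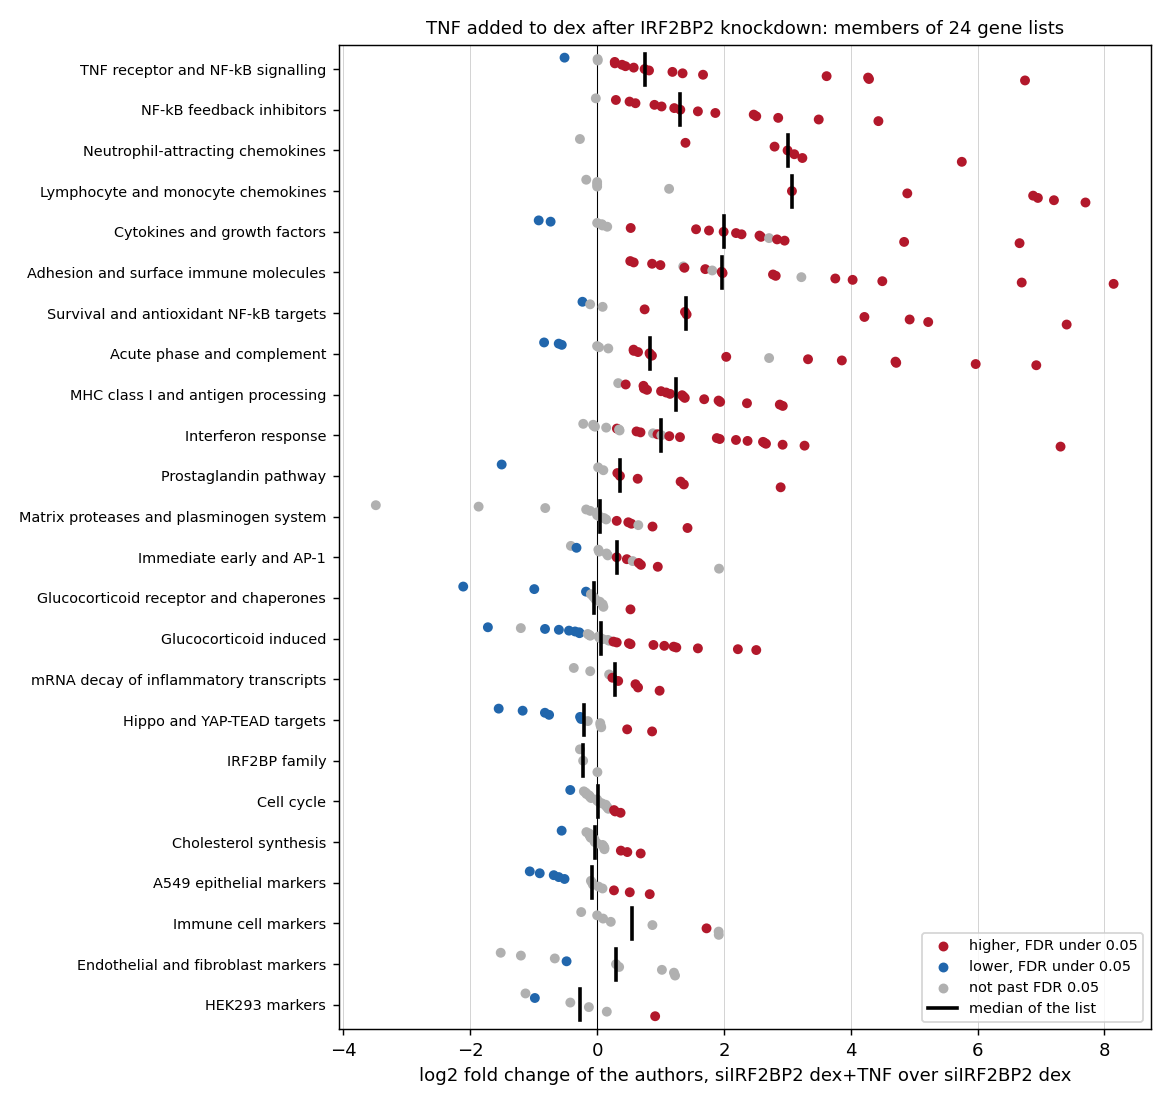
Log2 fold change in the authors' deposited table (x axis, siIRF2BP2 dex+TNF over siIRF2BP2 dex) of each member of 24 gene lists (1 line per list), with red for genes higher and blue for genes lower at an FDR under 0.05, grey for the rest and a black bar at the list median. The medians of the chemokine lists lie at 3.003 and 3.07, while those of the cell cycle and cholesterol lists lie at 0.02 and -0.04.

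Of 17 genes of the TNF receptor and NF-kB signalling list, 14 rose and 1 fell, with a median log2 fold change of 0.75. NFKB2, the precursor of the p52 subunit, had 57.6 FPKM in dex+TNF cells, against 3.10 FPKM in dex cells. RELB, its dimer partner in the alternative NF-kB pathway, had 6.10 FPKM in dex+TNF cells, against 0.339 FPKM in dex cells. Both were thus far lower in dex cells than in dex+TNF cells, at read ratios of 18.6 (17.4 to 19.8) for NFKB2 and 18.0 (16.3 to 19.8) for RELB. The subunits of the canonical pathway moved less, with log2 fold changes of 1.67 for NFKB1 (p105/p50), 1.19 for REL and 0.75 for RELA (p65) in the authors' deposited table. TNF itself had 40 reads in dex+TNF cells and 0 in dex cells, at least 13.4-fold higher when the dex column is set to a floor of 3 reads. The TNF receptors moved in opposite directions: TNFRSF1B (TNFR2) had 0.265 FPKM in dex+TNF cells and 0.023 FPKM in dex cells, and TNFRSF1A (TNFR1) 22.7 FPKM and 35.5 FPKM. Their log2 fold changes were 3.62 and -0.51 in the authors' deposited table. TNFRSF1A was the member of the list that fell, and MAP3K7 (the kinase TAK1) and CHUK (IKK-alpha) were the 2 that did not pass, each at 0.01.

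Genes on the NF-kB feedback inhibitor list rose in 14 of 15 cases, with a median log2 fold change of 1.31. That name is a label, and what single members did to NF-kB was not tested. NFKBIA (IkB-alpha), which holds NF-kB in the cytoplasm and is itself a glucocorticoid target, had 188 FPKM in dex+TNF cells, 67.7 FPKM in dex cells, 147 FPKM in TNF cells and 27.4 FPKM in vehicle cells. The combination was thus the highest of the 4 treatments, and dex alone already stood above vehicle. TNFAIP3 (A20), a ubiquitin-editing enzyme, had 22.3 FPKM in dex+TNF cells, against 1.11 FPKM in dex cells. BIRC3 (cIAP2), a ubiquitin ligase of the TNF receptor complex, had 29.6 FPKM in dex+TNF cells, 5.65 FPKM in dex cells, 14.9 FPKM in TNF cells and 1.82 FPKM in vehicle cells, and so repeated the order of NFKBIA. Log2 fold changes for dex+TNF over dex were 1.59 for NFKBIA (FDR 1.38e-139), 4.44 for TNFAIP3 and 2.51 for BIRC3 in the authors' deposited table. TNIP1, which partners A20, rose by 2.86, NFKBIE by 3.49 and CYLD, a deubiquitinase, by 2.47 on the log2 scale in the authors' deposited table. OTUD7B, at -0.02 in the authors' deposited table, was the member that did not pass.

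**Figure D2:**
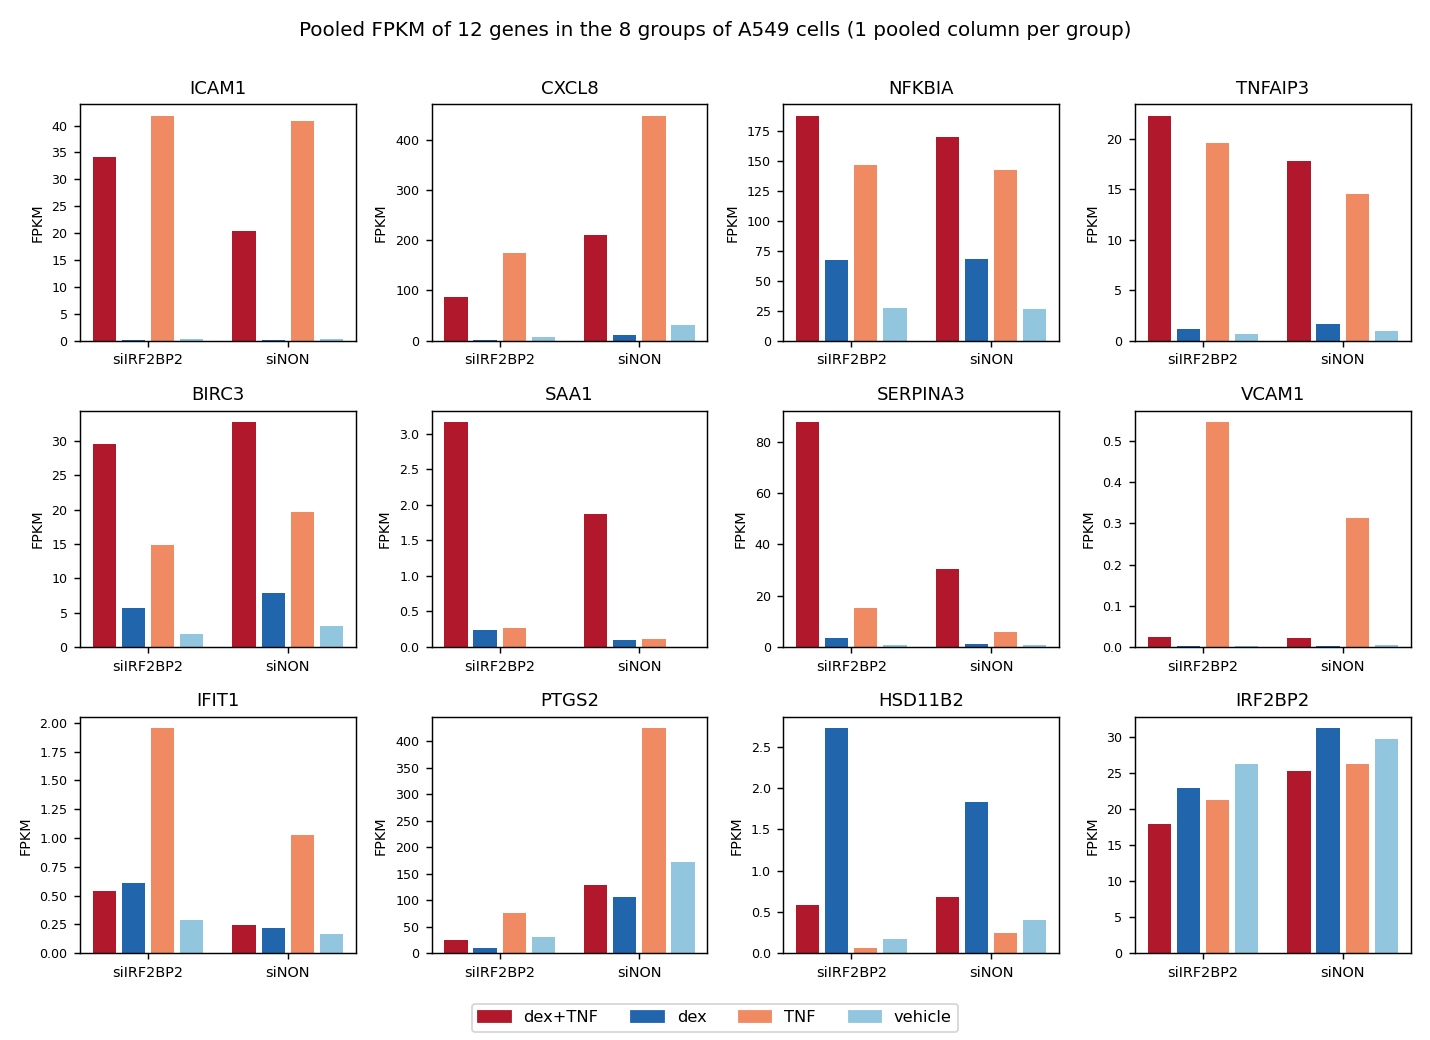
Pooled FPKM (y axis, own scale per panel, starting at 0) of 12 genes in the 8 A549 groups, with siIRF2BP2 left of siNON and, within each, bars for dex+TNF, dex, TNF and vehicle. Each bar is 1 pooled column of the authors, without error bars. ICAM1 is near 0 in the groups without TNF, SERPINA3 is highest with both agents, and IFIT1 and VCAM1 are highest with TNF alone.

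Promoters of genes from this list are shown because several hold the sequence that NF-kB binds. Sequences come from the RefSeq promoter table (build GRCh38.p14, 250 bases before to 50 after each start) and are printed 5′ to 3′ on the strand of the gene. Where the full 250 bases are printed, capitals mark matches to the NF-kB consensus and to the shorter GGNNNTTCC, searched on both strands. In the short windows they mark only the consensus match the window was drawn around, so the other TNFAIP3 match stays in lower case. A match is a description of the letters, not a binding site. For NFKBIA the 250 bases before the start (chr14:35404750-35404999, minus strand) hold a match of the short motif at -242 and a consensus match at -81. For TNFAIP3 a window (chr6:137867177-137867228, plus strand in 2 overlapping pieces) holds matches at -67 and -55. BIRC3 is shown around its matches at -199 and -135 (chr11:102317270-102317309 and chr11:102317334-102317373, plus strand), and TNIP1 around its match at -42 (chr5:151081052-151081091, minus strand).
NFKBIA: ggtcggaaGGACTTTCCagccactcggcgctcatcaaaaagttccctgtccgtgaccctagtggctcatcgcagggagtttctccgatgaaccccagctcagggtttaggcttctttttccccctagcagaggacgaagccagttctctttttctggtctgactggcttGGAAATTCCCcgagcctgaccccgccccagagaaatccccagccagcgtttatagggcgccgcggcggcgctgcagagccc
TNFAIP3 at -67: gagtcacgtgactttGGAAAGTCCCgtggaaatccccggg
TNFAIP3 at -55: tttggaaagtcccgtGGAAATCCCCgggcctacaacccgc
BIRC3 at -199: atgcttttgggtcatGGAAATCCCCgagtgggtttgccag
BIRC3 at -135: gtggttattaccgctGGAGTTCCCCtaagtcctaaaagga
TNIP1 at -42: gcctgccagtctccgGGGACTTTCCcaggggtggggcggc

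Chemokines gave some of the steepest responses. Of 7 neutrophil-attracting chemokines, 6 rose (median 3.003), and of 11 chemokines for lymphocytes and monocytes, 6 rose (median 3.07). CXCL8 (interleukin 8), the main human neutrophil attractant, had 86.9 FPKM in dex+TNF cells, against 1.72 FPKM in dex cells, a read ratio of 50.5 (43.9 to 58.4). CXCL5 had 352 FPKM in dex+TNF cells, against 47.9 FPKM in dex cells, and CXCL1 had 30.1 FPKM, against 3.68 FPKM. Log2 fold changes were 5.75 for CXCL8, 3.003 for CXCL5 and 3.11 for CXCL1 in the authors' deposited table. Both agents together still left these 3 genes below TNF alone, at 175 FPKM for CXCL8, 1013 FPKM for CXCL5 and 88.7 FPKM for CXCL1 in TNF cells. CXCL1, CXCL2 and CXCL3 are near-identical copies whose reads may have been split between them, so their separate values are uncertain. PPBP, with 3 reads in dex+TNF cells and 4 in dex cells, did not pass.

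Among the chemokines for other leukocytes, CCL20, which draws dendritic cells and T cells to epithelia, had 19.8 FPKM in dex+TNF cells, against 0.142 FPKM in dex cells. CCL2, the main monocyte attractant, had 67.3 FPKM in dex+TNF cells, against 2.44 FPKM in dex cells. Read ratios were 140.0 (89.4 to 233) for CCL20 and 27.6 (23.6 to 32.3) for CCL2. CX3CL1 (fractalkine) had 273 reads in dex+TNF cells and 2 in dex cells, a ratio of 137 (37.6 to 1139). CXCL10, an interferon-linked attractant of T cells, had 262 reads in dex+TNF cells and 1 in dex cells, a ratio of 263 (46.9 to 10446), and CXCL11 had 42 and 0, at least 14.1-fold higher against the floor of 3 reads. Both were thus scarcely detectable without TNF. CXCL9, CCL7 and CCL8 had 0 reads in both columns.

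The chemokine promoters are shown because the same 10 letters recur in them. CXCL1 (chr4:73869299-73869338, plus strand), CXCL2 (chr4:74099249-74099288, minus strand), CXCL3 (chr4:74038744-74038783, minus strand) and CXCL5 (chr4:73998744-73998783, minus strand) each carry GGGAATTTCC, which begins at -79, -78, -79 and -91 from the start, and an overlapping match on the other strand begins 1 base later. CCL20 (chr2:227813748-227813787, plus strand) has its match at -79, and IL6 (chr7:22727112-22727151, plus strand), a cytokine described next, at -73. The 250 bases before the start of CXCL8 (chr4:73740319-73740568, plus strand) hold no consensus match but the short motif at -91.
CXCL1: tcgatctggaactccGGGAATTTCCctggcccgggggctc
CXCL2: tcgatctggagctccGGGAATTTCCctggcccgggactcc
CXCL3: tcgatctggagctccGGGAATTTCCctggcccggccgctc
CXCL5: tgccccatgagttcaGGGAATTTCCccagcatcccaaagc
CCL20: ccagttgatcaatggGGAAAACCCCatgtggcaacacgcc
IL6: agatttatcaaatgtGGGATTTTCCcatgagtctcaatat
CXCL8: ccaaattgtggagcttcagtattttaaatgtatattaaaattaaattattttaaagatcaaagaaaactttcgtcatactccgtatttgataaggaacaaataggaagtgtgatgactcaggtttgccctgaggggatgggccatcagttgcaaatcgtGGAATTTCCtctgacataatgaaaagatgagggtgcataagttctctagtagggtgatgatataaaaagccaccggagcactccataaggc

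Of 19 cytokines and growth factors, 12 rose and 2 fell (median log2 fold change 1.99). IL6, the main inducer of the hepatic acute phase response, had 316 reads in dex+TNF cells and 3 in dex cells, a ratio of 106 (35.9 to 516). IL32, a pro-inflammatory cytokine of epithelial and lymphoid cells, had 32.4 FPKM in dex+TNF cells, against 1.22 FPKM in dex cells. CSF1, the macrophage growth factor, had 8.47 FPKM in dex+TNF cells, against 1.16 FPKM in dex cells. These 3 rose by 6.66, 4.84 and 2.96 on the log2 scale in the authors' deposited table. TNFSF15 (TL1A) rose by 2.28, BMP2 by 2.19 and IL15, a growth factor of natural killer cells, by 1.56 on the log2 scale in the authors' deposited table. IL11 and VEGFC went the other way: IL11 had 39 reads in dex+TNF cells and 80 in dex cells, and VEGFC had 285 and 511. CSF3 (G-CSF) was higher with both agents, at 0.706 FPKM in dex+TNF cells, 0.125 FPKM in dex cells, 0.146 FPKM in TNF cells and 0 in vehicle cells. Reads of IL1A, IL23A and CSF3 were few in dex cells, at 3, 4 and 11.

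ICAM1, the endothelial and epithelial ligand of leukocyte integrins, had the largest rise of all genes chosen by size. It stood at 34.2 FPKM (19309 reads) in dex+TNF cells, against 0.129 FPKM (73 reads) in dex cells, a read ratio of 266 (211 to 340), and its log2 fold change was 8.14 in the authors' deposited table. Of the 18 adhesion and surface immune molecules listed with it, 15 rose and none fell (median 1.97). TNFRSF9 (4-1BB) had 363 reads in dex+TNF cells, against 17 in dex cells, TLR2, a receptor for bacterial lipoproteins, 172 against 11, and CD83 166 against 25. CD274 (PD-L1), the ligand of an inhibitory T cell receptor, had 149 reads in dex+TNF cells and 41 in dex cells, a ratio of 3.65 (2.57 to 5.30). ICAM4, whose gene starts just after ICAM1 on the same strand, had 37 reads in dex+TNF cells and 0 in dex cells, at least 12.4-fold higher against the floor, and reads running on from ICAM1 cannot be told apart in this table. VCAM1 rose in the authors' deposited table (log2 fold change 3.76) on only 17 reads in dex+TNF cells and 1 in dex cells, a ratio of 17.1 (2.68 to 714). SELE (E-selectin), PDCD1LG2 and TNFRSF11B did not pass. The 250 bases before the ICAM1 start (chr19:10270870-10271119, plus strand, GRCh38.p14) hold the short motif at -186 and no consensus match.
ICAM1: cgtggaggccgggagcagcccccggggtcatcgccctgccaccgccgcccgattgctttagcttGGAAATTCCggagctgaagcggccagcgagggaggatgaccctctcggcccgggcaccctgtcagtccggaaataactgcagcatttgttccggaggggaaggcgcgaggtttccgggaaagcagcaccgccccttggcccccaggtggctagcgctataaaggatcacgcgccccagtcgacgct

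Genes listed as survival and antioxidant NF-kB targets rose as well, 7 of 10 with a median log2 fold change of 1.40. SOD2, the mitochondrial superoxide dismutase, had 243 FPKM in dex+TNF cells, against 8.51 FPKM in dex cells, a read ratio of 28.6 (27.7 to 29.4). BCL2A1, an anti-apoptotic BCL2 relative, had 1.23 FPKM in dex+TNF cells, against 0.035 FPKM in dex cells. TNFAIP2 had 316 FPKM in dex+TNF cells, against 18.2 FPKM in dex cells. All 3 rose steeply, by 4.93, 5.22 and 4.21 on the log2 scale in the authors' deposited table. CFLAR (cFLIP), which blocks caspase 8, rose by 1.41, and GADD45B had -0.23 and was the member that fell, in the authors' deposited table. BCL2L1 (BCL-XL) and XIAP did not pass, at -0.11 and 0.09 in the authors' deposited table.

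Acute phase and complement genes rose in 13 of 20 cases and fell in 3, with a median log2 fold change of 0.83, and several had their highest level with both agents. SERPINA3, an acute phase inhibitor of neutrophil proteases, had 87.8 FPKM in dex+TNF cells, 3.62 FPKM in dex cells, 15.3 FPKM in TNF cells and 0.740 FPKM in vehicle cells. SAA1, serum amyloid A, had 3.17 FPKM in dex+TNF cells, 0.232 FPKM in dex cells, 0.267 FPKM in TNF cells and 0 in vehicle cells. C3, the central complement component, had 11.3 FPKM in dex+TNF cells, 2.97 FPKM in dex cells, 4.60 FPKM in TNF cells and 1.85 FPKM in vehicle cells. In all 3 of these genes the combination was higher than the sum of the columns with a single agent. SAA2 had 712 reads in dex+TNF cells, 6 in dex cells, 93 in TNF cells and 2 in vehicle cells, and ORM1, an acute phase carrier protein, had 82, 3, 21 and 2. Both thus shared that order, although SAA1, SAA2 and the readthrough SAA2-SAA4 overlap in sequence and their separate values are uncertain. For dex+TNF over dex, log2 fold changes were 4.70 for SERPINA3, 3.86 for SAA1, 2.04 for C3 and 3.33 for CFB, complement factor B, in the authors' deposited table. PTX3, a pentraxin made at sites of inflammation, had 258 reads in dex+TNF cells and 4 in dex cells. The 3 fibrinogen chains fell together, with FGA at 34.0 FPKM in dex+TNF cells and 65.9 FPKM in dex cells, FGB at 15.3 and 25.4 FPKM, and FGG at 14.6 and 23.6 FPKM. Their log2 fold changes were -0.84, -0.61 and -0.56 in the authors' deposited table. CFI, LCN2 and HP were among those that did not pass.

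The machinery that loads peptides onto MHC class I rose in 17 of 18 cases, with a median log2 fold change of 1.24. TAP1, a subunit of the transporter that carries peptides into the endoplasmic reticulum, had 42.8 FPKM in dex+TNF cells, against 6.04 FPKM in dex cells, a read ratio of 7.09 (6.75 to 7.44). PSMB9, an immunoproteasome subunit, had 7.33 FPKM in dex+TNF cells, against 1.06 FPKM in dex cells. HLA-B had 23.0 FPKM in dex+TNF cells, against 9.88 FPKM in dex cells, and B2M, the light chain of MHC class I, had 80.7 FPKM, against 50.7 FPKM. TAP1 and PSMB9 thus moved further than the MHC chains, with log2 fold changes of 2.93 and 2.88 against 1.34 for HLA-B and 0.79 for B2M in the authors' deposited table. HLA genes share much of their sequence, so reads may have been split among them. NLRC5, the activator of MHC class I genes, was the member that did not pass (0.33 in the authors' deposited table). Promoter windows of TAP1 (chr6:32853752-32853791, minus strand, match at -72) and HLA-B (chr6:31357332-31357371, minus strand, match at -177) carry the NF-kB consensus, in capitals.
TAP1: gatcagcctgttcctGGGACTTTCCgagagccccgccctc
HLA-B: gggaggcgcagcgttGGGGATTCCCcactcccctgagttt

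Interferon response genes were divided. Of 25 members 16 rose and none fell, with a median log2 fold change of 1.01. IRF1, a transcription factor that NF-kB and interferon both induce, had 20.6 FPKM in dex+TNF cells, against 2.30 FPKM in dex cells. GBP1, an interferon-induced GTPase, had 1225 reads in dex+TNF cells, against 8 in dex cells, and GBP2 had 813, against 141. IFIT3 had 1090 reads in dex+TNF cells, against 192 in dex cells, and the RNA sensor IFIH1 (MDA5) 1510, against 257. These rose, with log2 fold changes of 3.27 for IRF1, 7.31 for GBP1, 2.62 for IFIT3 and 2.66 for IFIH1 in the authors' deposited table. STAT2, a component of the interferon signal itself, had 1.39 FPKM in dex+TNF cells and 1.54 FPKM in dex cells and did not pass. IFIT1 did not pass either, at 269 reads in dex+TNF cells and 305 in dex cells, nor did ISG15 at 191 and 161, nor OASL at 21 and 12. IFIT and GBP genes have close copies, and their values carry that uncertainty.

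Promoter windows of interferon genes on either side of that divide are shown because they hold a paired GAAA motif, the letters GAAA repeated after any 2 bases, which resembles the element bound by interferon regulatory factors. It is in capitals, and reads as paired TTTC where the match lies on the other strand. GBP1 (chr1:89065311-89065350, minus strand, match at -127) and CXCL10 (chr4:76023694-76023733, minus strand, match at -221) rose. ISG15 (chr1:1013375-1013414, plus strand, match at -107) and IFIT1 (chr10:89392492-89392531, plus strand, match at -116) did not pass. A further match, at -113 in ISG15 and at -103 in IFIT1, lies within the printed window but is not marked.
GBP1: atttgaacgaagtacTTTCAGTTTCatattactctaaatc
CXCL10: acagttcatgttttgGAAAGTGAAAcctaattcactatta
ISG15: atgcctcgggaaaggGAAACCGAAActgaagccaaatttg
IFIT1: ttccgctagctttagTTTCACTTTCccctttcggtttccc

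In the prostaglandin pathway 6 of 9 genes rose and 1 fell (median 0.36). PTGS2 (cyclooxygenase 2), the inducible enzyme of prostaglandin synthesis, had 25.2 FPKM in dex+TNF cells, against 10.6 FPKM in dex cells, and PTGES, the prostaglandin E synthase downstream of it, had 6.87 FPKM, against 2.95 FPKM. PTGER2, a prostaglandin E receptor, had 143 reads in dex+TNF cells and 448 in dex cells, and was the member that fell. Log2 fold changes were 1.37, 1.32 and -1.51 for these 3 genes in the authors' deposited table. PTGS1 rose on 16 reads in dex+TNF cells and 2 in dex cells, a ratio of 8.05 (1.89 to 72.1).

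Immediate early and AP-1 genes moved little: 5 of 13 rose and 1 fell (median 0.31, or 0.06 from FPKM ratios with a pseudocount of 0.1). FOSL2 had 22.8 FPKM in dex+TNF cells, against 12.5 FPKM in dex cells, and FOS had 10.1 FPKM, against 13.9 FPKM. JUN had 11.3 FPKM in dex+TNF cells and 12.1 FPKM in dex cells and did not pass. Of 17 matrix protease and plasminogen genes 5 rose (median 0.04), among them PLAU (urokinase) with 18.7 FPKM in dex+TNF cells, against 11.1 FPKM in dex cells, and MMP7 with 11.4 FPKM, against 8.67 FPKM. MMP3, MMP12 and SERPINB2 had 0 reads in both columns. Of 8 genes that control the decay of inflammatory transcripts 5 rose (median 0.29), led by ZFP36L1 with 35.9 FPKM in dex+TNF cells, against 19.3 FPKM in dex cells, while ZFP36 (tristetraprolin) at 81.8 and 78.5 FPKM did not pass.

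The glucocorticoid side of the comparison showed no common direction. NR3C1, the glucocorticoid receptor, had 1.01 FPKM in dex+TNF cells, against 0.749 FPKM in dex cells, and rose by 0.53 (FDR 4.69e-14) in the authors' deposited table. HSD11B2, which inactivates cortisol, had 0.579 FPKM in dex+TNF cells, 2.72 FPKM in dex cells, 0.063 FPKM in TNF cells and 0.170 FPKM in vehicle cells. It thus fell, by 2.11 on the log2 scale in the authors' deposited table, while the chaperones HSP90AA1, HSP90AB1 and FKBP4 did not pass. Of 28 genes on a list of glucocorticoid-induced genes, 11 rose, 7 fell and 10 did not pass. The list median was 0.07 in the authors' deposited table and turned to -0.03 when plain FPKM ratios were used.

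Dex alone raised 2245 genes (8.74%) and lowered 1789 (6.96%) against vehicle in the knockdown cells, a comparison that shares the dex cells with the one described here. On the glucocorticoid list 24 of 28 were higher with dex than with vehicle. Adding TNF left PER1, a clock gene and direct receptor target, at 12.9 FPKM in dex+TNF cells and 13.3 FPKM in dex cells, and DUSP1, a phosphatase that switches off p38, at 159.5 and 186 FPKM. KLF9 and ERRFI1 did not pass either. CDKN1C, a cell cycle inhibitor, had 1.21 FPKM in dex+TNF cells, against 4.34 FPKM in dex cells. SCNN1A, the alpha subunit of the epithelial sodium channel, had 0.736 FPKM in dex+TNF cells, against 1.41 FPKM in dex cells, and TFCP2L1 had 1.52 FPKM, against 2.46 FPKM. These 3 and TSC22D3 (GILZ), FKBP5, PDK4 and ANGPTL4 were the 7 that fell, by 0.28 to 1.72 on the log2 scale in the authors' deposited table. NFKBIA, BIRC3, KLF6, MT2A and SGK1 were among the 11 that rose, and the first 2 of these also stand on the inhibitor list. In the other order, adding dex to TNF raised 2234 genes (8.70%) and lowered 1888 (7.35%), again with shared samples.

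Genes of the Hippo pathway leaned downwards: 6 of 12 fell and 2 rose, with a median of -0.20. CTGF, a matricellular protein and classic YAP and TEAD target, had 6.84 FPKM in dex+TNF cells, against 21.3 FPKM in dex cells. CYR61, its relative, had 5.02 FPKM in dex+TNF cells, against 9.21 FPKM in dex cells, and ANKRD1 had 1.25 FPKM, against 3.05 FPKM. WWTR1, which encodes a YAP-like coactivator, had 1.06 FPKM in dex+TNF cells, against 2.04 FPKM in dex cells, while YAP1 at 1.10 and 1.15 FPKM did not pass. Log2 fold changes were -1.55 for CTGF, -0.76 for CYR61, -1.17 for ANKRD1 and -0.82 for WWTR1 in the authors' deposited table. Epithelial genes fell in the same cells, with KRT18 at -0.91, KRT8 at -0.68, KRT7 at -0.51 and CDH1 (E-cadherin) at -1.06 in the authors' deposited table. Of the 13 A549 markers these 4 and FGB fell, AKR1C1, NQO1 and GDF15 rose, and 5 did not pass. The summed level of the 13 markers was 1312 FPKM in dex+TNF cells and 2014 FPKM in dex cells, against 1952 FPKM in siNON dex+TNF cells and 2479 FPKM in siNON dex cells. KRT18 made up much of the siIRF2BP2 sums, while the list median log2 fold change was only -0.08 in the authors' deposited table. The part of these marker levels in the other results was not tested.

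Proliferation and sterol genes mostly did not pass, with 3 rises and 1 fall among 18 cell cycle genes (median 0.02, or -0.08 from FPKM ratios) and the same counts among 17 cholesterol genes (median -0.04). MKI67, the proliferation marker, had 7.26 FPKM in dex+TNF cells, against 6.36 FPKM in dex cells, and rose by 0.27 in the authors' deposited table. PCNA had 14.9 FPKM in dex+TNF cells and 15.9 FPKM in dex cells and did not pass.

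Of the 15 largest rises and 15 largest falls among genes with at least 5 CPM in the higher column, most rises not yet named were immune genes. NOD2, a sensor of bacterial cell wall, had 0.311 FPKM in dex+TNF cells and 0.002 FPKM in dex cells. TNFAIP6 (TSG-6), a hyaluronan-binding protein, had 219 reads and 1, a ratio of 220.2 (39.1 to 8738), and LTB (lymphotoxin beta) had 185 and 1, a ratio of 186 (33.0 to 7388). UBD (FAT10), a ubiquitin-like modifier, had 773 reads in dex+TNF cells, against 6 in dex cells, OLR1, an oxidized lipoprotein receptor, 219 against 3, and MEFV (pyrin) 791 against 12. All 6 were thus close to undetected in dex cells, so their fold changes rest on the counts of that column.

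Several of the largest falls concerned genes that dex had raised. STAC2, an adaptor of voltage-gated calcium channels, had 84 reads in dex+TNF cells and 711 in dex cells, and in FPKM 0.154, 1.29, 0.012 and 0.023 in dex+TNF, dex, TNF and vehicle cells. MAN1C1, a Golgi mannosidase, had 0.003 FPKM in dex+TNF cells and 0.036 FPKM in dex cells. ADRA2A, the alpha-2A adrenergic receptor, had 129 reads in dex+TNF cells and 736 in dex cells, and METTL7A had 100 and 555. PPL (periplakin), a desmosome-linked protein, had 514 reads in dex+TNF cells and 2437 in dex cells, and VIPR1, the receptor of vasoactive intestinal peptide, had 43 and 311. Dex over vehicle raised these 6 genes by 5.85 for STAC2, 2.998 for MAN1C1, 2.58 for ADRA2A, 3.34 for METTL7A, 2.76 for PPL and 3.11 for VIPR1 on the log2 scale, and TNF added to dex changed them by -2.96, -3.31, -2.37, -2.35, -2.17 and -2.67, in the authors' deposited table. The dex cells enter both contrasts, with opposite sign, so the pairs of values are not independent. SPDEF, an epithelial transcription factor, had 336 reads in dex+TNF cells and 1613 in dex cells, and its log2 fold change with dex over vehicle was 0.42 in the authors' deposited table. VAV3 and TFEC fell as well, with 0.005 and 0.013 FPKM in dex+TNF cells, against 0.023 and 0.075 FPKM in dex cells, and were already lower with dex than with vehicle.

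The same treatment contrast in siNON cells shares no sample with the one above. There 1076 genes (4.19%) rose and 679 (2.64%) fell. Of these, 1008 also rose and 573 also fell in the knockdown cells, which is 93.7% of the siNON risers and 84.4% of the fallers, but 35.5% and 25.6% of the longer knockdown lists. The number that passes depends on the spread between replicates, which the pooled columns do not hold. Sizes can be read from the siNON side, where the choice of genes does not use the knockdown response: among the 436 genes that rose by at least 1 (log2) in siNON cells, the median was 2.13 in knockdown cells and 1.77 in siNON cells, and 312 of the 436 had the larger value in knockdown cells. Among the 91 that fell by at least 1 in siNON cells the medians were -1.55 and -1.26, with 57 larger falls in knockdown cells. Over the 742 genes that rose by at least 1 in either cell state the median difference was 0.49, but 306 of them entered through the knockdown response alone, which pulls that value up by construction. No deposited test addresses the difference of the responses, so it is a description.

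CXCL8 shows how a larger ratio could go with a lower level. It had 86.9 FPKM in siIRF2BP2 dex+TNF cells and 1.72 FPKM in siIRF2BP2 dex cells, against 211 FPKM in siNON dex+TNF cells and 10.7 FPKM in siNON dex cells. The knockdown cells thus had less CXCL8 under both treatments, and a read ratio of 50.5 (43.9 to 58.4) against 19.6 (18.7 to 20.5) in siNON cells. CXCL5 likewise had 352 and 47.9 FPKM in siIRF2BP2 dex+TNF and dex cells, against 455 and 129 FPKM in siNON dex+TNF and dex cells. PTGS2 had 25.2 and 10.6 FPKM in siIRF2BP2 dex+TNF and dex cells, against 128 and 106 FPKM in siNON dex+TNF and dex cells, and its log2 fold change was 1.37 with siIRF2BP2 and 0.28, which did not pass, with siNON in the authors' deposited table. ICAM1 by contrast ended higher, at 34.2 FPKM in siIRF2BP2 dex+TNF cells and 20.4 FPKM in siNON dex+TNF cells, from similar dex levels of 0.129 and 0.107 FPKM.

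**Figure D3:**
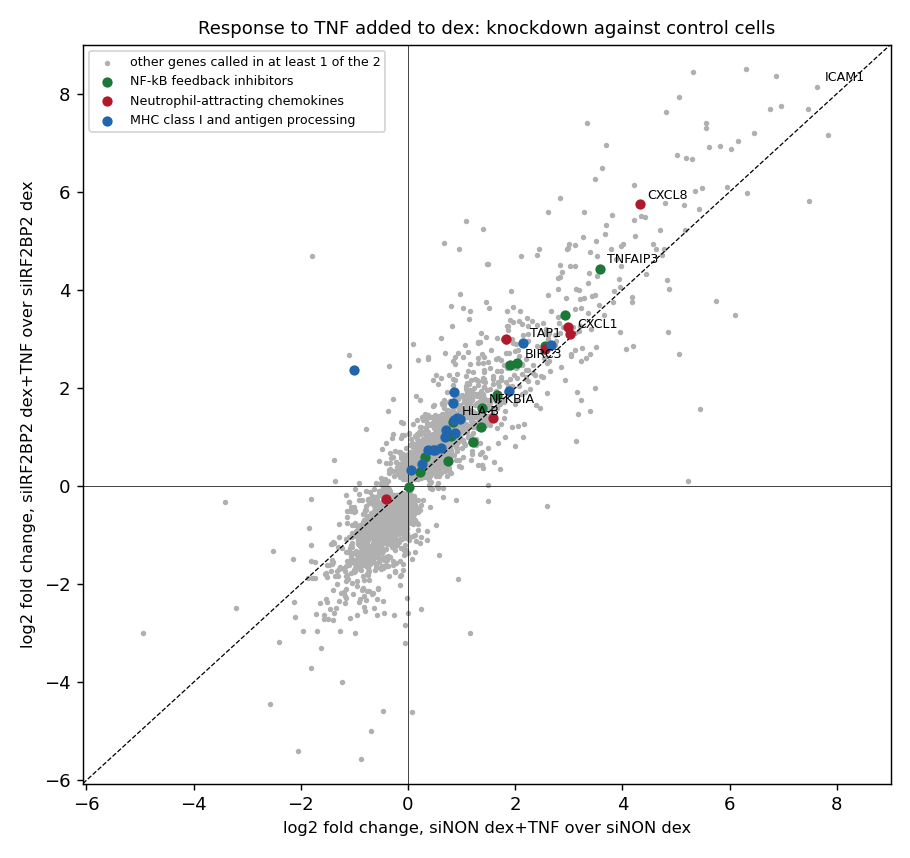
Log2 fold change of dex+TNF over dex in siIRF2BP2 cells (y axis) and in siNON cells (x axis), from the authors' deposited table, for genes with an FDR under 0.05 in at least 1 of them and all members of the coloured lists, with equal values on the dashed line. The contrasts share no samples. All 18 antigen-presentation genes (blue) lie above the line, with a median of 1.24 in siIRF2BP2 cells and 0.78 in siNON cells.

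The antigen-presentation list had the larger log2 fold change in knockdown cells for 18 of 18 genes, with list medians of 1.24 and 0.78 in siIRF2BP2 and siNON cells. Most other lists leaned the same way, such as mRNA decay (8 of 8), AP-1 (12 of 13) and cholesterol genes (14 of 17). The lists of A549 markers (6 of 13), endothelial and fibroblast markers (3 of 9) and HEK293 markers (2 of 6) did not. SERPINA3 had 87.8 FPKM in siIRF2BP2 dex+TNF cells and 3.62 FPKM in siIRF2BP2 dex cells, against 30.2 and 1.19 FPKM in siNON dex+TNF and dex cells, so level differed and ratio hardly did. For the NF-kB inhibitor list the medians were 1.31 with siIRF2BP2 and 1.35 with siNON, and for the adhesion list 1.97 and 2.12. Gene by gene the difference ran the other way, with a median of 0.22 and 11 of 15 inhibitors larger with siIRF2BP2, and a median of 0.41 and 12 of 18 adhesion molecules larger. Among genes with at least 5 CPM, the largest excesses in knockdown cells were those of TNFAIP6 (7.40 with siIRF2BP2 and 3.34 with siNON), CX3CL1 (6.95 and 3.69) and CREB5 (3.02 and 0.61) in the authors' deposited table. Each of these 3 stood lower in siIRF2BP2 dex cells than in siNON dex cells, with 0.001 against 0.020 FPKM for TNFAIP6, 0.004 against 0.029 FPKM for CX3CL1 and 0.004 against 0.024 FPKM for CREB5. In siIRF2BP2 dex+TNF cells against siNON dex+TNF cells they had 0.272 against 0.197 FPKM, 0.608 against 0.376 FPKM and 0.030 against 0.036 FPKM. The opposite difference was found for NFKBID, an atypical IkB protein, at 1.00 with siIRF2BP2 and 2.14 with siNON, and larger falls in knockdown cells for MAN1C1 (-3.31 and -1.61), CREB3L1 (-2.09 and -0.57) and SPDEF (-2.14 and -0.76), in the authors' deposited table.

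The response of the same knockdown cells to TNF without dex shares no sample with the response in the presence of dex either. TNF over vehicle raised 3156 genes (12.3%) and lowered 3147 (12.3%). Of the genes that TNF raised in the presence of dex, 72.4% also rose without dex, and these made up 65.1% of the risers without dex. For falling genes the shares were 69.3% and 49.3%. Over the 1035 genes that rose by at least 1 with or without dex, the median difference in log2 fold change, with dex minus without, was -0.22, but 340 entered through the response without dex alone and 218 through that with dex alone, so this value restates the choice of genes in part. Where both passed, median log2 fold changes were 0.54 with dex and 0.60 without dex for rises, and -0.53 and -0.61 for falls. Responses of the NF-kB inhibitor list had similar medians with and without dex, at 1.31 and 1.38, and those of neutrophil chemokines were 3.003 and 2.69. Gene by gene, 3 of 7 neutrophil chemokines were larger with dex and 4 smaller, at a median difference of -0.16.

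Interferon response genes responded less to TNF with dex than without, with a median difference of -0.68 gene by gene. Matrix proteases (-0.89) and chemokines for lymphocytes and monocytes (-0.89) differed by more, but their medians rest in part on genes with few or no reads. In the higher of the dex+TNF and dex columns, 6 of 17 matrix genes and 5 of 11 of these chemokines reached 5 CPM, against 21 of 25 interferon response genes. All 25 interferon response genes rose with TNF in the absence of dex and 16 in its presence. Their medians were 1.01 with dex and 2.45 without, and 1 of 25 had the larger value with dex. IFIT1 had 0.539 FPKM in dex+TNF cells and 0.608 FPKM in dex cells, against 1.95 FPKM in TNF cells and 0.289 FPKM in vehicle cells. OASL had 21 reads in dex+TNF cells and 12 in dex cells, and MX1, an antiviral GTPase, had 0.255 and 0.075 FPKM in dex+TNF and dex cells, against 1.19 and 0.063 FPKM in TNF and vehicle cells. STAT2 had 1.39 and 1.54 FPKM in dex+TNF and dex cells, against 2.56 and 1.36 FPKM in TNF and vehicle cells. In log2 terms TNF changed IFIT1 by -0.06 with dex and 2.89 without, OASL by 0.88 and 3.93, STAT2 by -0.05 and 1.03 and ISG15 by 0.35 and 1.67 in the authors' deposited table, and the values with dex of these 4 did not pass. IRF1 rose alike in both settings, by 3.27 with dex and 3.26 without in the authors' deposited table.

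**Figure D4:**
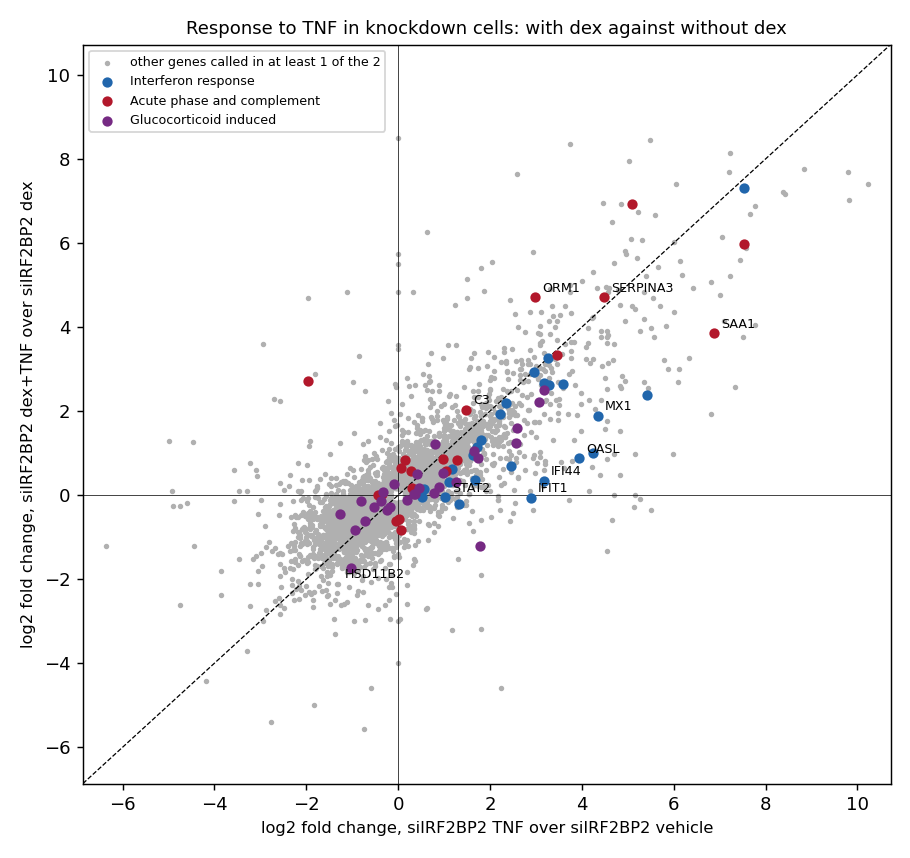
Log2 fold change with TNF in siIRF2BP2 cells in the presence of dex (y axis, dex+TNF over dex) and in its absence (x axis, TNF over vehicle), from the authors' deposited table, for genes with an FDR under 0.05 in at least 1 of them and all members of the coloured lists, with equal values on the dashed line. Interferon response genes (blue) lie below the line in 24 of 25 cases, and SERPINA3 and C3 (red) lie above it.

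Single genes stood further apart. IL23A, a cytokine subunit that drives Th17 cells, had 0.438 and 0.073 FPKM in dex+TNF and dex cells, against 11.4 and 0.070 FPKM in TNF and vehicle cells. VCAM1 had 0.024 and 0.001 FPKM in dex+TNF and dex cells, against 0.546 and 0.003 FPKM in TNF and vehicle cells. Dex thus kept the level reached with TNF far below that of TNF alone in both. In the other direction, SFRP5, a secreted Wnt antagonist, had 3.75 and 0.455 FPKM in dex+TNF and dex cells, against 0.068 and 0.046 FPKM in TNF and vehicle cells. In the presence of dex TNF raised SFRP5 by 3.13 on the log2 scale, and its value without dex of 0.66 did not pass, in the authors' deposited table. The difference between the settings was not tested. PRR15L had 2.52 and 6.17 FPKM in dex+TNF and dex cells, against 0.014 and 1.41 FPKM in TNF and vehicle cells, so its fall with TNF was smaller with dex.

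Promoter sequence was set against these responses for the 15830 of 25689 genes that matched a RefSeq promoter of 300 bases. The NF-kB consensus was found in 8.19% of all matched promoters and in 8.98% of those of genes with at least 5 CPM. The sets of genes that rose or fell hold here only genes with at least 5 CPM in the higher of the dex+TNF and dex columns. The consensus was found in 13.9% of 1925 promoters of genes that rose and in 22.5% of 315 that rose by at least 1 (log2). It was in 31.8% of 85 that rose by at least 2 and in 29.4% of 51 that rose by at least 3. Of 1352 promoters of genes that fell 8.14% held it. The looser GGNNNTTCC, which can overlap the consensus, was in 26.3% of all matched promoters and 29.6% of those of genes with at least 5 CPM. It was in 52.9% of those of genes that rose by at least 3. The paired GAAA motif, searched on both strands, was in 4.20% of all matched promoters and 3.79% of those of genes with at least 5 CPM. It was in 13.3% of those of genes that rose by at least 1 and in 9.80% of those that rose by at least 3. By list, the consensus was in 9 of 14 matched NF-kB inhibitors and 5 of 7 neutrophil chemokines, and the paired GAAA motif in 11 of 15 matched antigen-presentation genes and 11 of 17 matched interferon response genes. These were the highest shares among the 24 lists. Of lists that mostly rose, the consensus was in only 1 of 9 survival, 2 of 12 acute phase and 3 of 17 interferon response genes. It was in 3 of 11 cholesterol genes, which mostly did not pass. These are counts of letters, and a gene without a match in the window may hold one elsewhere.

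**Figure D5:**
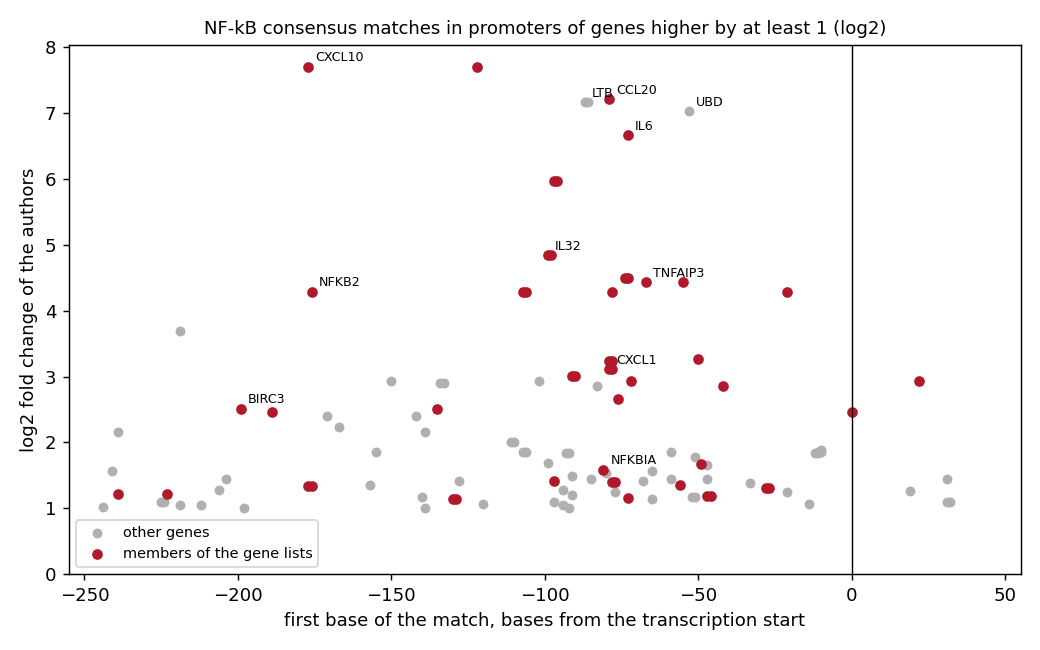
Position of each NF-kB consensus match (x axis, bases from the transcription start, first base of the match) against the log2 fold change of its gene in the authors' deposited table (y axis, siIRF2BP2 dex+TNF over siIRF2BP2 dex). Genes shown rose by at least 1 and had at least 5 CPM in the higher of these columns. Red marks members of the gene lists and grey other genes. Of 116 matches in 71 genes, 110 begin upstream of the start and 67 within 100 bases of it, with a median of -90.5. The searched window runs from 250 bases before the start to 50 after it. Overlapping matches that begin 1 base apart are counted separately.

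Positions of the matches were read for genes that rose by at least 1 and had at least 5 CPM, and those in other genes were not examined. Of 116 matches in the promoters of 71 such genes, 110 began upstream, 67 of them within 100 bases of the start. The searched window holds 250 bases before the start and 50 after it, so matches anywhere in it would mostly lie upstream. The median first base of the matches was -90.5. A position that matched on both strands was counted once. Overlapping matches that began 1 base apart, as in CXCL1, were counted separately, so there are fewer separate sites than matches. The matches of CXCL1, CXCL2, CXCL3 and CXCL5 printed above, at -78 to -91, lie within 100 bases of the start.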

How the data were processed

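RNA sequencing of 24 A549 samples, in 8 groups of 3, was used. Per the submitters' processing notes, FastQC, Trimmomatic 0.33, HOMER, Bowtie2, TopHat2 and edgeR were used with build hg19; which step each served is not given in the sources used here, nor is the strand of counting. The deposited FPKM values were computed by the authors with the replicates of a group pooled into 1 column. The log2 fold changes, p-values and FDR are the authors' own, deposited per comparison over 48118 transcripts, and the FDR matched a Benjamini-Hochberg adjustment of those p-values. The edgeR model behind them is not given in the sources used here.

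From these files, 1 transcript was kept for each of 25689 symbols, that with the highest mean reads over the 8 columns. FPKM times length gave CPM, reads scaled to the tags of a column, and the steps between low values gave the tags per column: low values came out whole within 0.1 reads for 98.3% to 100% of them. Reads on transcripts came to 234% to 236% of the tags, summed over all transcripts, and the cause was not tested. Because columns are pooled, no new test was fitted and the fixed design had none beyond the authors'. Genes named were IRF2BP2, NR3C1, TNFRSF1A and TNFRSF1B. The 15 largest rises and 15 largest falls with an FDR under 0.05 and at least 5 CPM were named too. So were up to 8 members per list with the smallest p, and the 8 largest differences each way from siNON cells and from TNF without dex. Symbols with a name pattern of non-coding or antisense genes were left out of the rises, falls and differences. Other list members are given as examples chosen with their values seen. The 24 lists hold 323 genes, and members and lists were chosen with earlier results of these data known. Promoters are from RefSeq (GRCh38.p14). Python 3.11.15, numpy 2.4.6, pandas 2.3.3, scipy 1.17.1 and matplotlib 3.10.9 were used, and the steps were tested on simulated data. Some genes are not reported here by name.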

Additional observations from a re-analysis of the deposited data

Results flagged for a closer look

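Only 3 of the 1584 genes that passed in both siIRF2BP2 and siNON cells moved in opposite directions with TNF added to dex, and the differences were not tested. GDF15, a stress-induced cytokine, had a log2 fold change of 0.51 in siIRF2BP2 cells and -0.55 in siNON cells in the authors' deposited table, at 6.86 FPKM in siIRF2BP2 dex+TNF cells and 5.28 FPKM in siIRF2BP2 dex cells, against 22.5 and 36.7 FPKM in siNON dex+TNF and dex cells. NR4A1, an immediate early nuclear receptor, had 0.33 and -0.35, and USP36, a deubiquitinase, 0.26 and -0.36, in the authors' deposited table.

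Between TNF with dex and TNF without dex in siIRF2BP2 cells, 84 of 3691 genes (2.28%) that passed in both moved in opposite directions, also untested as differences. NANOS1 had 2.61 and 1.19 FPKM in dex+TNF and dex cells, against 0.251 and 0.669 FPKM in TNF and vehicle cells, which is a log2 fold change of 1.24 with dex and -1.27 without in the authors' deposited table. JPH2 had 0.72 with dex and -1.98 without, GUCY1A2 1.21 and -0.77, and EFHD1 0.85 and -0.75, in the authors' deposited table. ID4, an inhibitor of helix-loop-helix factors, had -0.88 with dex and 0.79 without, and SULT2B1 -0.70 and 0.64, in the authors' deposited table.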

How the results depend on the processing

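No paired analysis was possible because the deposited columns pool the replicates, and leaving out a replicate and a replicate block were not run for the same reason. The counts of 2840 rises and 2239 falls became 695 and 395 when a log2 change of at least 1 was asked for, and lay between 2262 and 2867 and between 1642 and 2273 under the other filters, FDR thresholds and choices of transcript. Log2 ratios of pooled FPKM, with pseudocounts of 0.01 and 0.1 in that order, gave list medians of 0.65 and 0.64 for NF-kB signalling, 1.11 and 0.98 for NF-kB inhibitors (1.20 with median-of-ratios scaling), 1.26 and 1.09 for survival genes, 0.69 and 0.49 for acute phase genes, 1.12 and 0.96 for antigen presentation, 0.24 and 0.21 for prostaglandin genes, 0.18 and 0.057 for AP-1 genes, -0.13 and -0.11 for the glucocorticoid receptor and chaperones, 0.19 and 0.19 for mRNA decay, -0.29 and -0.28 for Hippo genes, -0.35 and -0.35 for the IRF2BP family, -0.078 and -0.075 for cell cycle genes, -0.14 and -0.14 for cholesterol genes and -0.19 and -0.19 for A549 markers. The pseudocount of 0.1 alone moved the medians of cytokines (0.97), adhesion molecules (0.89) and interferon genes (0.59). The glucocorticoid-induced list turned to -0.031 and -0.031. These ratios lie lower than the authors' values by a median of 0.11 and 0.13 over the 224 named genes, with shifts down to -2.72 and -5.52. None of the 224 reversed, but 109 and 163 moved by more than their counting error, and the cause was not tested. The remaining list medians, and 23 of 24 with median-of-ratios scaling, moved little. Genes with fewer than about 20 reads in the higher column, such as VCAM1 and PTGS1, are limited by depth.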
